A study of Drosophila melanogaster with 12 samples.

Results

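The cuticular protein genes described here are the rows of a fat body RNA-seq count table whose symbols begin with Cpr and a digit, Lcp, Ccp84 or Twdl. They number 120 of the 15222 genes in the table, with 70 Cpr genes, 17 Lcp genes, 7 Ccp84 genes and 26 Twdl genes. The rule used names alone and no measured value.

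The cuticle of an insect larva is an extracellular layer of chitin fibres and proteins that the epidermis secretes and renews at each moult, and tracheae carry a cuticular lining of the same kind. Proteins of the Cpr, Lcp and Ccp84 genes belong to the CPR family, named for the Rebers and Riddiford consensus, a domain that binds chitin. Tweedle proteins, encoded by the Twdl genes, form a separate family, in which dominant alleles of TwdlD change the shape of the larva. The fat body is the larval organ of storage, secretion and metabolism, and it does not build the body wall cuticle.

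RNA was taken from fat bodies of female Drosophila melanogaster larvae at the wandering stage of the third larval instar, reared at 25 °C. Every larva carried UAS-Dcr2, which strengthens RNA interference, and r4-GAL4, a driver expressed in the larval fat body; the other parent came from stock 992, with a UAS hairpin against the insulin receptor gene InR (InRi), or from the w1118 control stock 60000. Larvae of each genotype were raised on food with 0.7 M or 0.15 M sucrose, which gave 4 groups, InRi on 0.7 M, InRi on 0.15 M, control on 0.7 M and control on 0.15 M, with 3 libraries each. The labels do not say whether replicates came from separate cultures, so p-values measure the spread between these libraries, which may be technical. One hairpin against InR was used.

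Libraries held 872755 to 7114144 counts, so that 3 counts in one library correspond to between 0.423 and 3.27 CPM (counts per 1000000 counts). Levels below are CPM on effective library sizes after TMM scaling, on which libraries of different depth can be compared. InR itself was higher in the libraries labelled InRi, at 140.2 ± 27.8 against 52.5 ± 6.10 CPM in control on 0.7 M and at 133.1 ± 17.9 against 43.4 ± 17.5 CPM in control on 0.15 M (SD, n = 3 each; edgeR quasi-likelihood test, adjusted p = 0.0157 and 0.0185). A fall of InR counts was thus not seen, and the reason was not tested. Groups are called InRi-labelled below, and each direction rests on the label. Control 0.15 M replicate 2 stood apart, with 7628 genes detected against 9214 to 11312 in the others and 0.0451% of counts on mitochondrial genes against 0.776% to 6.67%. Fat body markers summed to between 161400 and 357200 CPM in every library, but single markers differed. Of the 11, 2 rose (Ilp6 and CG15828) and 1 fell between genotypes on 0.7 M, against 5.41% of all genes called. Lsp1alpha fell, at 269.6 ± 113 CPM in InRi-labelled and 22880 ± 1930 CPM in control (SD, n = 3 each, edgeR adjusted p = 0.00056). On 0.15 M it had 4348 ± 2070 and 24920 ± 9058 CPM (SD, n = 3 each, edgeR adjusted p = 0.0236). In bulk tissue, fewer cells of a type and less RNA per cell cannot be told apart.

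Most cuticular protein genes were at or near 0 in these libraries. Counts were found in any library for 85 of the 120 genes (70.8%), against 13018 of all 15222 genes (85.5%), and the remaining 35 had none in all 12 libraries. A total of 0 over the 12 libraries allows a level of up to 0.058 CPM, for counting error only. Enough counts for testing were present in 18 of the 120 genes, against 56.9% of all genes: 12 Cpr, 5 Lcp and 1 Twdl gene, and no Ccp84 gene. The other 102 genes together came to 8.94 to 21.1 CPM per library, and none of them reached more than 56 counts over the 12 libraries or more than 15 counts in one.

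**Figure D1:**
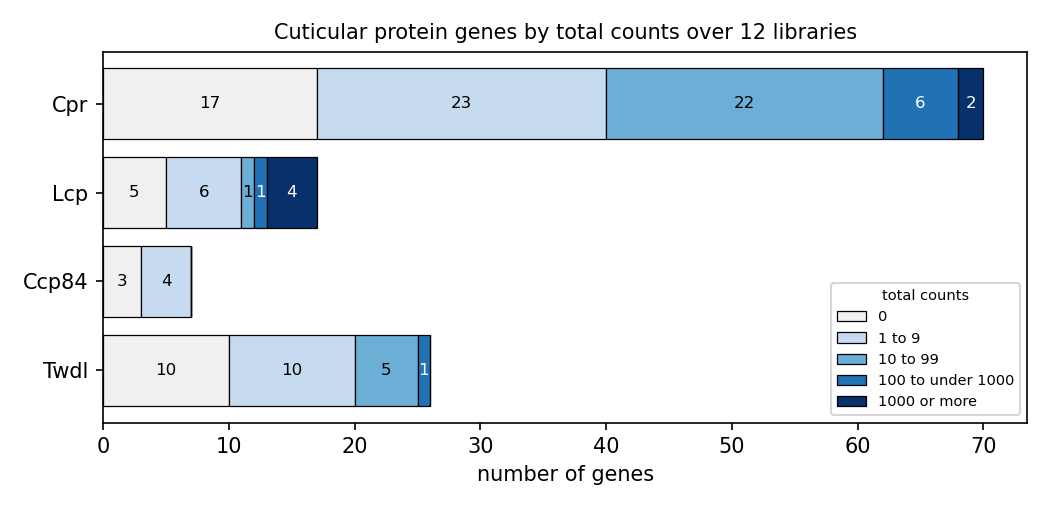
Number of genes (x axis) in each family (rows) by the total count over the 12 libraries (shading). Of the 120 genes, 35 were at 0, 43 had 1 to 9 counts, 28 had 10 to 99, 8 had at least 100 but under 1000 and 6 had 1000 or more.

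The genes with no counts were spread over all families. Among Cpr genes they were Cpr5C, Cpr23B, Cpr30F, Cpr47Ed, Cpr47Ef, Cpr49Aa, Cpr50Ca, Cpr57A, Cpr62Bc, Cpr65Ax1, Cpr65Ax2, Cpr65Az, Cpr65Ea, Cpr65Eb, Cpr72Ea, Cpr72Eb and Cpr76Bb. Among Lcp genes they were Lcp65Ab1, Lcp65Ab2, Lcp65Ag1, Lcp65Ag2 and the pseudogene Lcp65APsi. Ccp84Aa, Ccp84Ac and Ccp84Ae had none, and the whole Ccp84 cluster, which lies in the region of the Antennapedia complex, had 5 counts over the 12 libraries. Tweedle genes without counts were TwdlB, TwdlD, TwdlH, TwdlJ, TwdlL, TwdlN, TwdlQ, TwdlR, TwdlS and TwdlW. Cpr65Ax1 with Cpr65Ax2, Lcp65Ab1 with Lcp65Ab2, and the Lcp65Ag genes are near-identical copies, and how the authors treated reads shared by copies is not given in the sources used here, so a count of 0 for these is uncertain.

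The genes lie in clusters, and counts were concentrated in few of them. In the Release 6 annotation 85 of the 120 genes stood in 20 runs of 2 or more neighbouring cuticular protein genes, and the chromosome arms held 6 genes (2L), 28 (2R), 46 (3L), 32 (3R) and 8 (X). The longest run, 16 Lcp65 and Cpr65 genes on 3L, had 112 counts over the 12 libraries. A run of 12 Tweedle genes on 3R had 14 counts. The run of 5 on 2R that holds Lcp1, the pseudogene Lcp1Psi, Lcp2, Lcp3 and Lcp4 had 29833.

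Cpr49Ac, a CPR family gene on 2R, led by a wide margin. It averaged 2138 CPM over the 12 libraries and ranked 38 among all genes by CPM. Lcp4 (332.0 CPM), Lcp1 (191.8 CPM), Lcp2 (116.0 CPM) and Lcp3 (55.4 CPM), which encode the major proteins of late larval cuticle, came after it together with Cpr78E (56.3 CPM). Per kilobase of exon, which allows levels to be compared between genes, the same 6 led, with Cpr49Ac at 1010, Lcp4 at 419.2, Lcp1 at 180.1, Lcp2 at 125.1, Cpr78E at 121.5 and Lcp3 at 75.9 CPM per kb. Lcp9, also a protein of late larval cuticle, stood at 48.6 CPM per kb, and every other gene was at or below 16.9 CPM per kb.

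**Figure D2:**
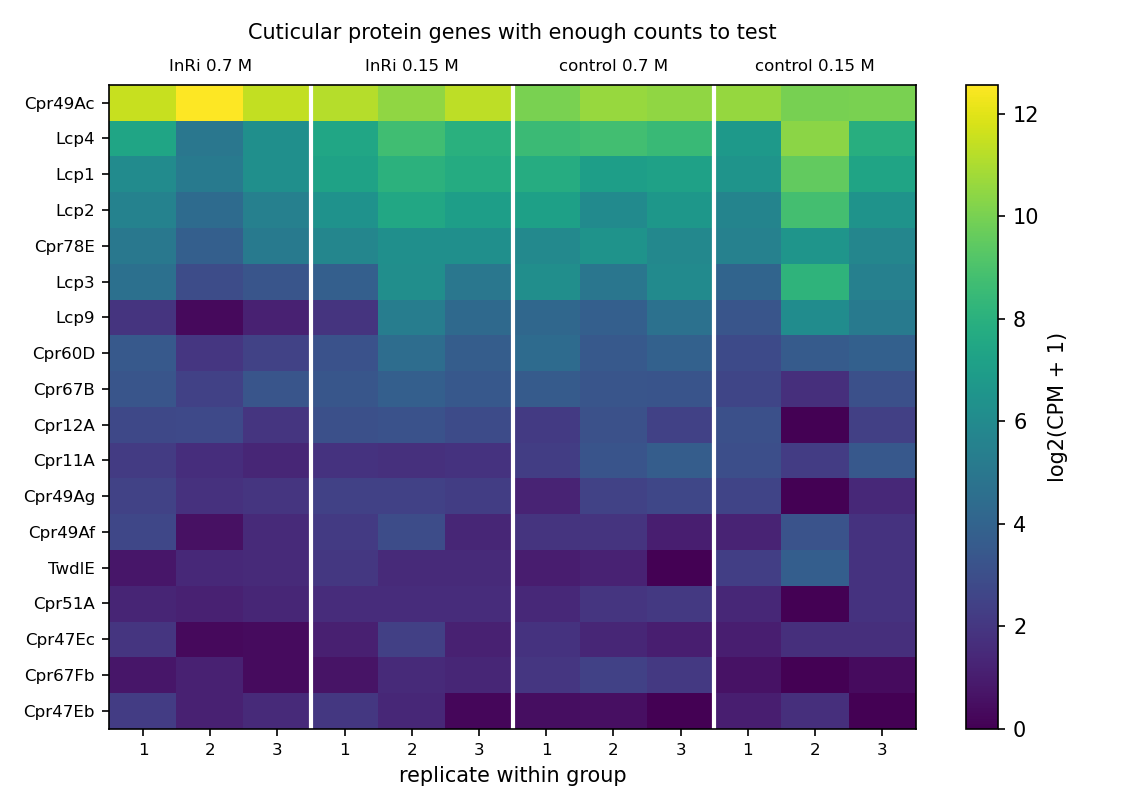
Level of the 18 testable cuticular protein genes (rows, ordered by mean CPM) in each of the 12 libraries (columns, 3 per group), as log2(CPM + 1). Cpr49Ac has the highest level in every library except control 0.15 M replicate 2, where Lcp4 reached 1351 CPM and Cpr49Ac 1019 CPM.

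Cpr49Ac was the one cuticular protein gene that passed the test in any comparison, and it was higher in InRi-labelled than in control fat bodies on 0.7 M sucrose. Its levels were 2910, 6052 and 2721 CPM in the InRi-labelled 0.7 M libraries, 2279, 1428 and 2566 CPM in the InRi-labelled 0.15 M libraries, 1063, 1603 and 1446 CPM in the control 0.7 M libraries, and 1526, 1019 and 1043 CPM in the control 0.15 M libraries. The InRi-labelled 0.7 M libraries were the highest group and overlapped with no other, while the 2 control groups overlapped. On 0.7 M the group means were 3894 ± 1871 CPM in InRi-labelled and 1371 ± 278 CPM in control fat bodies (SD, n = 3 each), and the gene rose by a log2 fold change of 1.51 (SE 0.39, edgeR adjusted p = 0.0426). Of all 8662 genes tested, 5.41% were called in this comparison and 3.63% were called higher, so 1 of 18 is near that background. The call stood without InRi-labelled 0.15 M replicate 2, control 0.15 M replicate 1 or control 0.15 M replicate 2. It was lost on leaving out any of the other 9 libraries, with edgeR adjusted p from 0.0503 to 0.205. The last was reached without InRi-labelled 0.7 M replicate 2, where the log2 fold change was 1.06. A fit with a block for replicate number lost the call too.

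In the other comparisons Cpr49Ac did not pass the threshold. InRi-labelled fat bodies had 2091 ± 592 CPM on 0.15 M, against 1196 ± 286 CPM in control fat bodies (SD, n = 3 each; log2 fold change 0.81, SE 0.38, edgeR adjusted p = 0.279). Between 0.7 M and 0.15 M sucrose the log2 fold change was 0.90 (SE 0.38) in InRi-labelled fat bodies, where the groups did not overlap (edgeR adjusted p = 0.401). The same difference was 0.20 (SE 0.38) in control fat bodies, where they did (edgeR adjusted p = 0.856). The test of the difference between the 2 genotype effects gave a log2 value of 0.70 (SE 0.54, edgeR adjusted p = 0.895), so a dependence on diet was not detected.

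**Figure D3:**
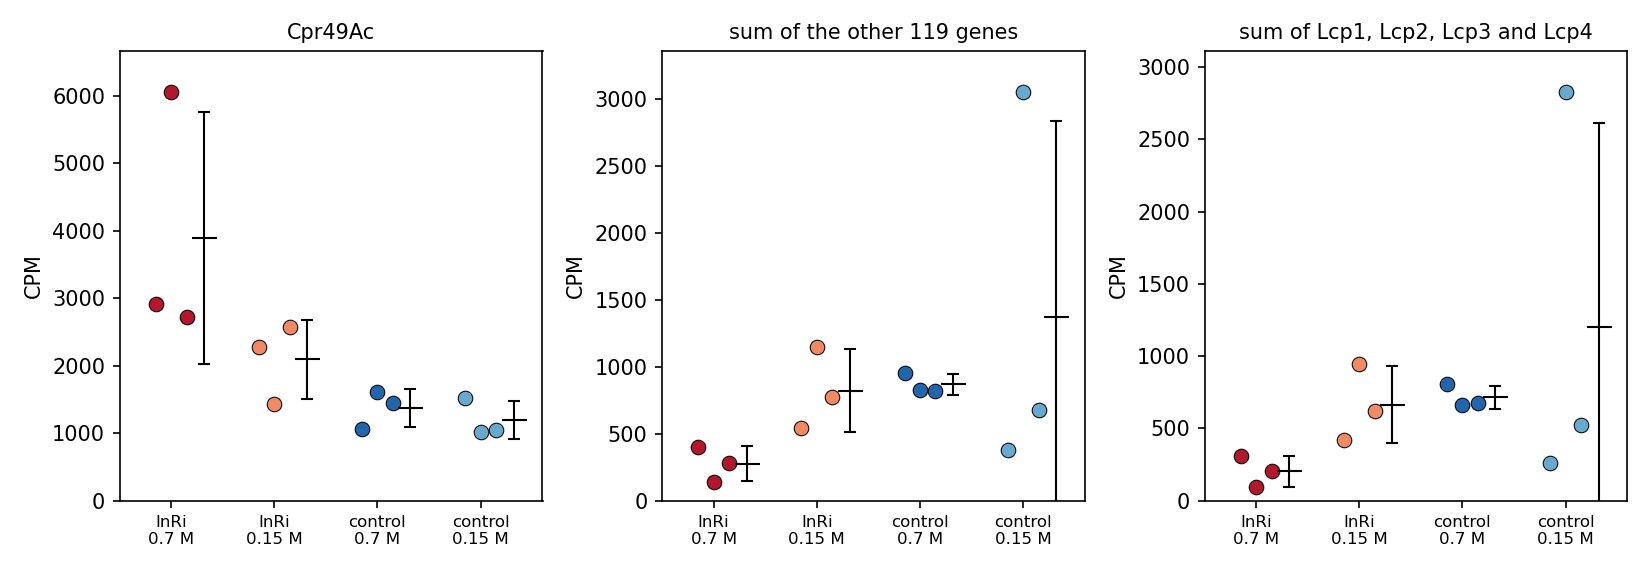
CPM (y axes) of Cpr49Ac, of the other 119 cuticular protein genes summed, and of Lcp1 to Lcp4 summed. Coloured points are the libraries of each group, in replicate order, and the black marks are the mean ± SD (n = 3). InRi-labelled 0.7 M libraries are highest for Cpr49Ac (2721 to 6052 CPM) and lie below both the InRi-labelled 0.15 M and the control 0.7 M libraries in the other panels, and control 0.15 M replicate 2 reaches 2825 CPM in the right panel.

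Lcp1, Lcp2, Lcp3 and Lcp4 had their lowest group means where Cpr49Ac had its highest. Their sum was 305.6, 92.3 and 205.9 CPM in the InRi-labelled 0.7 M libraries, 419.9, 947.9 and 620.4 CPM in the InRi-labelled 0.15 M libraries, 807.6, 659.3 and 675.2 CPM in the control 0.7 M libraries, and 261.7, 2825 and 522.9 CPM in the control 0.15 M libraries. The InRi-labelled 0.7 M libraries lay below every InRi-labelled 0.15 M and every control 0.7 M library and overlapped with the control 0.15 M group, in which replicate 2 was far above the rest. The mean of control on 0.15 M was 1203 ± 1410 CPM (SD, n = 3), and 392.3 CPM without that replicate. Cpr49Ac exceeded the sum of the 4 genes 9.52 to 65.6 times in InRi-labelled 0.7 M libraries, 1.51 to 5.43 times in InRi-labelled 0.15 M libraries, 1.32 to 2.43 times in control 0.7 M libraries and 0.361 to 5.83 times in control 0.15 M libraries.

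None of the 4 genes passed the test on 0.7 M. Lcp4 had 168.1, 30.5 and 76.7 CPM in InRi-labelled and 379.3, 435.8 and 364.8 CPM in control fat bodies, without overlap (log2 fold change -2.10, SE 0.81, edgeR adjusted p = 0.177). Lcp1 had 66.9, 35.3 and 76.7 CPM in InRi-labelled and 215.7, 130 and 147.0 CPM in control fat bodies, also without overlap (log2 fold change -1.47, SE 0.63, edgeR adjusted p = 0.231). The other pair likewise showed groups that did not overlap. Lcp2 had 46.4, 20.1 and 43.5 CPM in InRi-labelled and 139.8, 64.3 and 100.2 CPM in control fat bodies (log2 fold change -1.47, SE 0.68, edgeR adjusted p = 0.269). Lcp3 had 24.2, 6.53 and 9.01 CPM in InRi-labelled and 72.8, 29.2 and 63.2 CPM in control fat bodies (log2 fold change -2.02, SE 0.94, edgeR adjusted p = 0.268). The 4 genes were not in a fixed proportion across libraries: Lcp2, a close copy of Lcp1 whose shared reads are uncertain, stood at 0.494 to 0.694 times Lcp1 in all 12 libraries, whereas Lcp4 ranged from 0.863 to 3.35 times Lcp1 and Lcp3 from 0.0843 to 0.430 times Lcp1.

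Lcp9 had the largest log2 fold change on 0.7 M among the 5 testable Lcp genes. It was counted 15, 1 and 4 times in the InRi-labelled 0.7 M libraries, and its levels there were 2.67, 0.242 and 1.24 CPM. In the other groups it reached 2.68, 39.5 and 18.7 CPM (InRi-labelled, 0.15 M), 17.6, 12.9 and 25.1 CPM (control, 0.7 M) and 8.996, 66.95 and 33.39 CPM (control, 0.15 M). The InRi-labelled 0.7 M libraries lay below all the others, although InRi-labelled 0.15 M replicate 1 was at almost the same level. The log2 fold change was -3.56 for InRi-labelled against control on 0.7 M (SE 1.02, edgeR adjusted p = 0.0662) and -3.75 for 0.7 M against 0.15 M in InRi-labelled fat bodies (SE 0.99, edgeR adjusted p = 0.113). An antisense RNA gene overlaps Lcp9 and the strand of counting is not given in the sources used here, so reads of the pair cannot be told apart.

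Of the other Cpr genes, Cpr78E was near the threshold on 0.7 M. Cpr78E had 31.3, 12.8 and 33.5 CPM in InRi-labelled 0.7 M libraries, 54.1, 75.0 and 75.4 CPM in InRi-labelled 0.15 M libraries, 59.7, 85.3 and 56.6 CPM in control 0.7 M libraries, and 45.3, 93.0 and 53.1 CPM in control 0.15 M libraries. The InRi-labelled 0.7 M libraries were below every other library, and the other 3 groups overlapped. Its log2 fold change was -1.39 against control on 0.7 M (SE 0.38, edgeR adjusted p = 0.0525) and -1.40 against 0.15 M in InRi-labelled fat bodies (SE 0.37, edgeR adjusted p = 0.116). On 0.15 M the 2 genotypes differed by 0.11 (SE 0.37, edgeR adjusted p = 0.892), and the difference between the genotype effects was -1.50 (SE 0.53, unadjusted p = 0.0140, edgeR adjusted p = 0.888).

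Cpr11A had lower levels in InRi-labelled fat bodies on both diets, though neither difference passed. It had 3.56, 2.18 and 1.55 CPM in InRi-labelled 0.7 M libraries and 2.54, 2.31 and 2.59 CPM in InRi-labelled 0.15 M libraries. Control levels were 3.94, 8.64 and 11.98 CPM on 0.7 M and 7.09, 3.72 and 9.99 CPM on 0.15 M. All 6 InRi-labelled libraries were therefore below all 6 control libraries, from 5 to 39 counts per library. The log2 fold change was -1.55 on 0.7 M (SE 0.48, edgeR adjusted p = 0.0876) and -1.54 on 0.15 M (SE 0.46, edgeR adjusted p = 0.110), and the difference between them was -0.01 (SE 0.74, edgeR unadjusted p = 0.990). Both differences passed once control 0.15 M replicate 2 was left out (edgeR adjusted p = 0.0232 on 0.7 M and 0.0242 on 0.15 M).

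The remaining named Cpr genes did not pass either. Cpr60D had 10.5, 2.90 and 4.66 CPM in InRi-labelled and 20.1, 10.4 and 14.2 CPM in control fat bodies on 0.7 M, where replicate 1 of the first just overlapped replicate 2 of the second (log2 fold change -1.28, SE 0.52, edgeR adjusted p = 0.202). Cpr67B had 9.17, 12.9 and 10.1 CPM in InRi-labelled and 5.18, 2.23 and 7.42 CPM in control fat bodies on 0.15 M, without overlap (log2 fold change 1.004, SE 0.38, edgeR adjusted p = 0.195). On 0.7 M its difference was -0.38 (SE 0.38, edgeR adjusted p = 0.668). Cpr12A, Cpr49Af, Cpr49Ag and Cpr51A averaged 5.23, 3.14, 3.37 and 1.85 CPM over the 12 libraries, and none had an unadjusted p under 0.05 in any comparison.

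TwdlE was the one Tweedle gene with enough counts to test. Its levels were 0.711, 1.69 and 1.86 CPM in the InRi-labelled 0.7 M libraries, 3.11, 1.82 and 1.83 CPM in the InRi-labelled 0.15 M libraries, 0.986, 1.33 and 0 CPM in the control 0.7 M libraries, and 4.09, 12.7 and 2.57 CPM in the control 0.15 M libraries. In control fat bodies the 0.7 M libraries were below the 0.15 M libraries (log2 fold change -2.45, SE 0.72, edgeR adjusted p = 0.220). The gene was testable only through the control 0.15 M libraries (15, 17 and 9 counts), where it was highest. A lower level against that group therefore carries no weight. TwdlE overlaps lectin-28C on the opposite strand, and no library had more than 22 counts of it.

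Cpr67Fb, Cpr47Eb and Cpr47Ec were tested too, and they are named after their values were seen. Cpr67Fb was counted 4, 5 and 1 times in InRi-labelled 0.7 M libraries and 4, 11 and 10 times in InRi-labelled 0.15 M libraries, against 15, 20 and 3 times in control 0.7 M libraries and 2, 0 and 1 times in control 0.15 M libraries. It was lower in InRi-labelled than in control fat bodies on 0.7 M (log2 fold change -2.20, SE 0.59, edgeR adjusted p = 0.0507) and differed the other way on 0.15 M (log2 fold change 1.81, SE 0.80, edgeR adjusted p = 0.248), and neither passed. The difference between these effects was -4.00 (SE 0.98, unadjusted p = 0.00136, edgeR adjusted p = 0.695), and an overlapping antisense RNA gene makes the counts uncertain. Only the control 0.7 M counts made Cpr67Fb testable, so its lower level against that group was built into the choice. Cpr47Eb was counted 21, 5 and 6 times in InRi-labelled and 2, 2 and 0 times in control 0.7 M libraries. Cpr47Ec averaged 1.72 CPM over the 12 libraries and had no unadjusted p under 0.05.

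**Figure D4:**
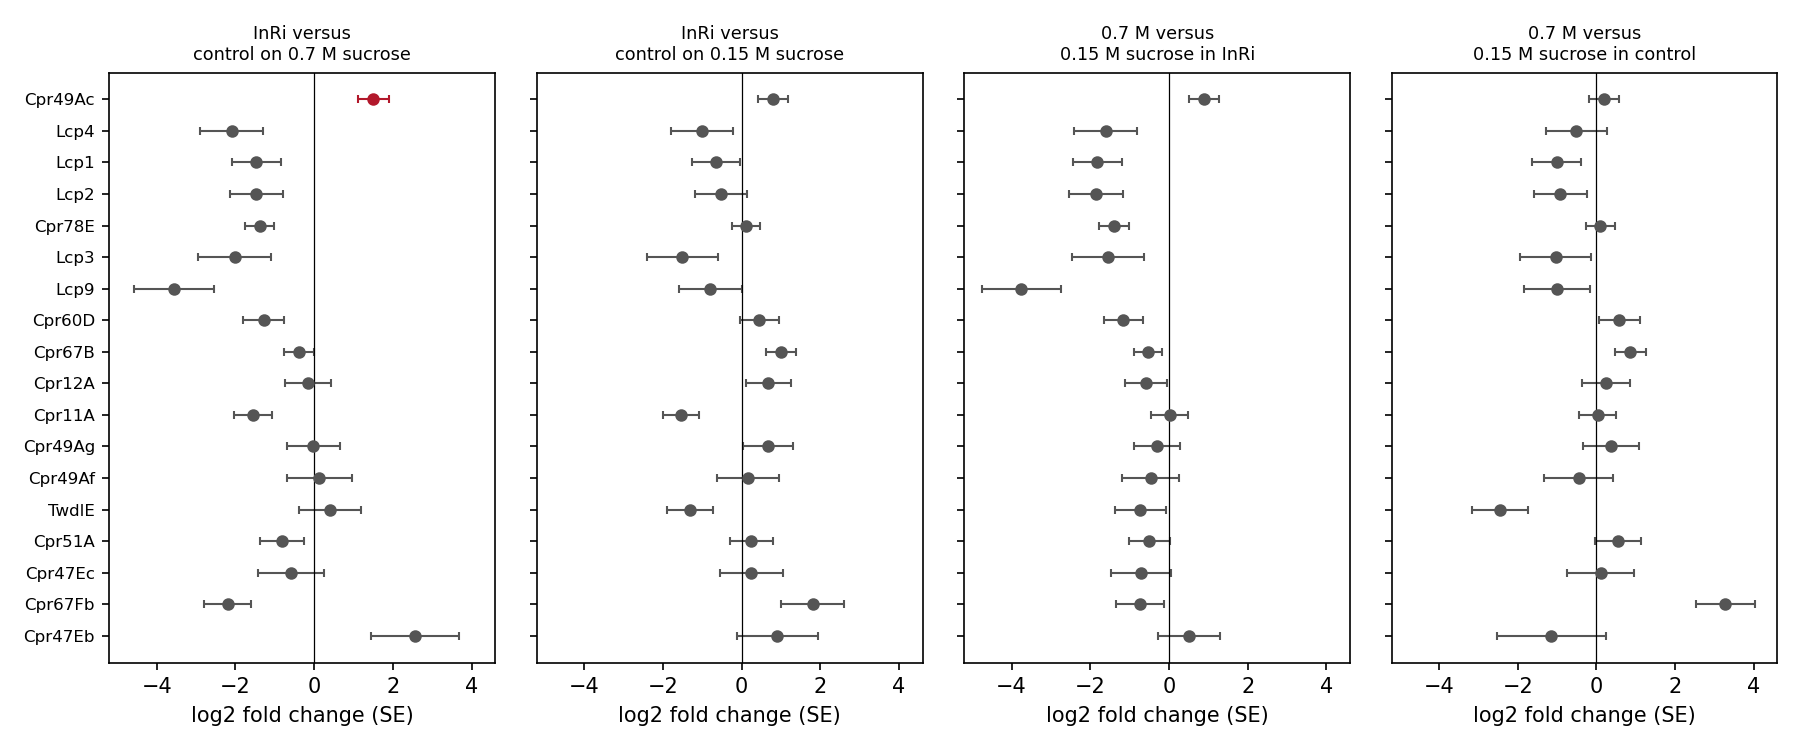
Log2 fold change with its standard error (x axes, edgeR) of the 18 testable genes in the 4 pairwise comparisons, the first-named group over the second. Red marks the one value that passed an adjusted p of 0.05, Cpr49Ac for InRi versus control on 0.7 M (1.51); most genes lie left of 0 for InRi versus control on 0.7 M and for sucrose in InRi, with medians of -1.05 and -0.72.

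The sum of the genes other than Cpr49Ac was lower in InRi-labelled fat bodies on 0.7 M than in control on the same diet or InRi-labelled on 0.15 M. Most of that sum was Lcp1 to Lcp4. By group mean they gave 201.3 of 273.0 CPM in InRi-labelled and 714.0 of 866.2 CPM in control libraries on 0.7 M. The 119 genes summed to 399.7, 138.0 and 281.3 CPM in the InRi-labelled 0.7 M libraries, 537.9, 1149 and 769.8 CPM in the InRi-labelled 0.15 M libraries, 954.6, 823.9 and 820.0 CPM in the control 0.7 M libraries, and 374.0, 3047 and 677.6 CPM in the control 0.15 M libraries. With Cpr49Ac included the order turned round, at 4167 ± 1758 CPM in InRi-labelled and 2237 ± 206 CPM in control fat bodies on 0.7 M (SD, n = 3 each), so the total follows that gene. The share of counts on mitochondrial genes also lay apart in these groups, at 0.776% to 2.54% in InRi-labelled and 3.39% to 5.39% in control 0.7 M libraries, and its part in the result was not tested. Cpr genes without Cpr49Ac summed to 65.2 ± 23.0, 129.8 ± 24.2, 129.0 ± 15.7 and 113.5 ± 20.7 CPM in InRi-labelled 0.7 M, InRi-labelled 0.15 M, control 0.7 M and control 0.15 M libraries (SD, n = 3 each), and only the first of these groups overlapped with none of the others. Twdl genes summed to 3.27 to 7.20 CPM in the first 3 groups and to 6.85 to 20.8 CPM in control on 0.15 M. On 0.7 M their sum was not lower, with means of 4.50 CPM in InRi-labelled and 4.35 CPM in control libraries.

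On 0.7 M, 14 of the 18 testable genes had a negative log2 fold change between InRi-labelled and control fat bodies, with a median of -1.05 against -0.04 over all genes tested. Levels were lower without overlap for 9 of the 18 (Cpr11A, Cpr51A, Cpr67Fb, Cpr78E, Lcp1, Lcp2, Lcp3, Lcp4 and Lcp9), against 16.5% of all genes tested, and higher without overlap for 2 (Cpr49Ac and Cpr47Eb), against 18.5%. An unadjusted p under 0.05 was reached by 9 of 18, against 18.7% of all genes. No gene was called lower by edgeR, against 1.79% of all genes, and DESeq2 called 5 of 18 in either direction (Cpr11A, Cpr49Ac, Cpr67Fb, Cpr78E and Lcp9), against 9.65%. Without control 0.15 M replicate 2, which is in neither group but enters the shared estimate of spread, edgeR called 9 of 20 genes, against 18.5% of all genes. Of these, 8 fell, against 7.5%: Cpr11A, Cpr67Fb, Cpr78E, Lcp1, Lcp2, Lcp3, Lcp4 and Lcp9. Cpr67Fb was testable only through the control 0.7 M libraries (15, 20 and 3 counts), where it was highest. Its place among the genes below control on 0.7 M therefore carries no weight. Lcp1 to Lcp4 are neighbouring genes, and Lcp1 and Lcp2 may share reads, so they are not independent.

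On 0.15 M no cuticular protein gene passed between InRi-labelled and control fat bodies, against 1.73% of all genes. An unadjusted p under 0.05 was reached by 4 of 18 (Cpr11A, Cpr67B, Cpr67Fb and TwdlE), against 18.8%, and DESeq2 called 1, Cpr11A, against 6.47%. TwdlE was testable only through its counts in control 0.15 M libraries, so its entry carries no weight. Levels were higher without overlap for 2 (Cpr67B and Cpr67Fb, against 13.4% of all genes) and lower without overlap for 1 (Cpr11A, against 9.33%). The median log2 fold change was 0.20, against 0.03 over all genes. Without control 0.15 M replicate 2 edgeR called 1, Cpr11A, against 4.32% of all genes.

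Between sucrose concentrations no gene passed either. In InRi-labelled fat bodies 15 of 18 had a negative log2 fold change for 0.7 M against 0.15 M, with a median of -0.72 against -0.02 over all genes, and 8 were lower without overlap, against 12.2% of all genes, while Cpr49Ac was higher without overlap, against 14.7%. There edgeR called 0, against 1.26% of all genes; 6 had an unadjusted p under 0.05 (11.4% of all genes), DESeq2 called 2, Cpr78E and Lcp9 (3.6%), and edgeR without control 0.15 M replicate 2 called 4, Cpr78E, Lcp1, Lcp2 and Lcp9, all lower (6.7%). In control fat bodies edgeR called 0, against 0.277% of all genes; 2 had an unadjusted p under 0.05 (10.5%) and DESeq2 called 2, Cpr67Fb and TwdlE (2.08%). Levels there were higher without overlap for 2 (Cpr67B and Cpr67Fb, against 8.12% of all genes) and lower without overlap for 1 (TwdlE, against 6.2%). Cpr67Fb and TwdlE were testable only through the control group in which each was highest, so their entries carry no weight. The difference of differences gave 0 calls among these genes in edgeR, against 0 of all 8662 genes, and 0 in DESeq2, against 17 of 8662 (0.196%), and 4 unadjusted p under 0.05 (5.26% of all genes), all negative; without control 0.15 M replicate 2 edgeR again called 0 of 20, against 0.0113% of all genes. Comparisons that share a group share its libraries, so their values are not independent.

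Some other genes that build, harden or time the cuticle were called on 0.7 M. Over all genes tested 5.41% were called in this comparison, with 1.79% lower and 3.63% higher. Among 15 tested tanning genes, which darken and cross-link cuticle through catecholamines, 2 fell in InRi-labelled fat bodies on 0.7 M and none rose, and their median log2 fold change was -1.08 against -0.04 over all genes. One was tan (t), which releases dopamine from its beta-alanine conjugate, at 1.60, 5.56 and 4.35 CPM in InRi-labelled and 14.98, 31.7 and 15.3 CPM in control fat bodies (log2 fold change -2.50, SE 0.45, edgeR adjusted p = 0.00664). The other was yellow-f, a dopachrome conversion enzyme, at 94.1, 108.3 and 82.3 CPM in InRi-labelled and 230.5, 319.9 and 168.8 CPM in control fat bodies (log2 fold change -1.34, SE 0.30, edgeR adjusted p = 0.0214). Neither gene's groups overlapped.

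Of 23 tested genes of chitin synthesis and turnover, 1 rose on 0.7 M and none fell. It was CS-2, the chitin synthase known from the midgut lining, at 61.4, 87.5 and 75.5 CPM in InRi-labelled and 21.1, 31.0 and 32.7 CPM in control fat bodies, without overlap (log2 fold change 1.42, SE 0.35, edgeR adjusted p = 0.0324). Of 15 tested genes of ecdysone timing, 1 fell, Eip71CD, a methionine sulfoxide reductase induced by ecdysone, at 35.8, 37.0 and 38.8 CPM in InRi-labelled and 165.4, 268.1 and 173.2 CPM in control fat bodies (log2 fold change -2.44, SE 0.31, edgeR adjusted p = 0.00108). None of 8 tested genes of other cuticle structure passed, and Pcp, the pupal cuticle protein, had 104.0 ± 32.8 CPM in InRi-labelled and 140.0 ± 41.2 CPM in control fat bodies (SD, n = 3 each; edgeR adjusted p = 0.470). None of the 23 Osiris genes, which are expressed in cuticle-secreting epithelia, had enough counts to test, and 10 were at 0 throughout. In the other 3 pairwise comparisons no gene of these 5 lists passed.

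**Figure D5:**
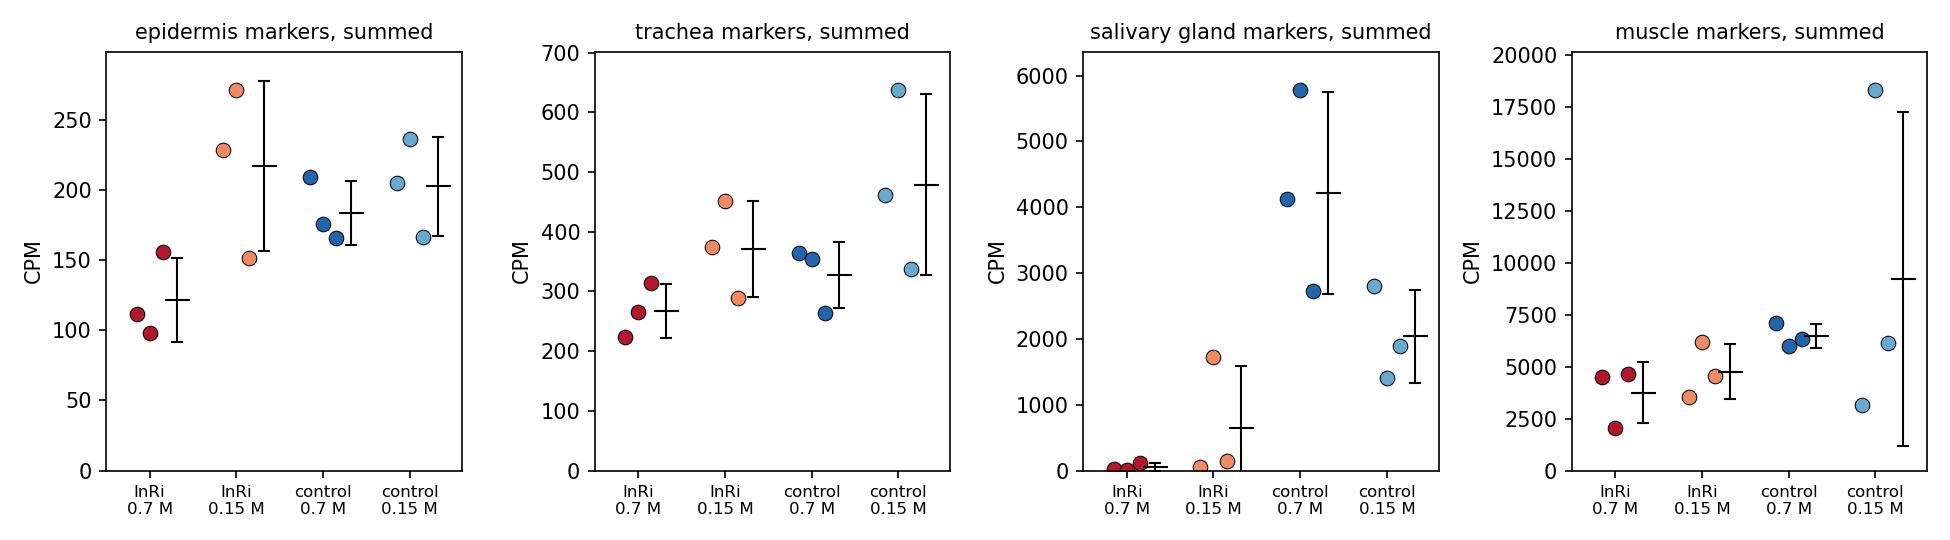
Summed CPM (y axes, from 0) of the markers of 4 other tissues in each library, with the mean ± SD (n = 3) in black. Epidermis, salivary gland and muscle markers are lower in InRi-labelled than in control libraries on 0.7 M without overlap, trachea markers overlap, and control 0.15 M replicate 2 has 18320 CPM of muscle markers.

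Markers of cuticle-making tissues were present in every library, and their sums were not tested. The 12 epidermis markers, of which 8 were tested and none was at 0 throughout, summed to 98.4 to 155.6 CPM in InRi-labelled 0.7 M libraries, 151.4 to 271.6 CPM in InRi-labelled 0.15 M libraries, 165.5 to 209.0 CPM in control 0.7 M libraries and 166.4 to 236.6 CPM in control 0.15 M libraries. No epidermis marker passed in any comparison, and grh, which encodes the Grainyhead factor of epidermal barriers, had 27.5 ± 5.73 CPM in InRi-labelled and 43.1 ± 13.4 CPM in control fat bodies on 0.7 M (SD, n = 3 each; edgeR adjusted p = 0.287). The InRi-labelled 0.7 M libraries were the lowest group by mean for epidermis markers, with some overlap with InRi-labelled 0.15 M libraries, and for Lcp1 to Lcp4. This was not particular to epidermis markers. The same group was lowest by mean for trachea, muscle, salivary gland, midgut (730.2 CPM) and nervous system (384.6 CPM) markers. It was not the lowest by summed CPM for imaginal disc, hemocyte or fat body markers. For imaginal discs the sum and the single markers differed. The median log2 fold change of the 13 disc markers between genotypes on 0.7 M was -0.612. This compares with -0.609 for epidermis markers and -0.044 over all genes.

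Trachea markers, 10 of 11 tested and Muc4B at 0, summed to 223.4 to 313.6 CPM in InRi-labelled 0.7 M libraries, 289.6 to 451.1 CPM in InRi-labelled 0.15 M libraries, 263.5 to 363.8 CPM in control 0.7 M libraries and 337.4 to 638.3 CPM in control 0.15 M libraries, and none passed. Muscle markers, all 16 tested, summed to 2052 to 4644 CPM in InRi-labelled and 5989 to 7086 CPM in control fat bodies on 0.7 M, and to 18320 CPM in control 0.15 M replicate 2, the library with the highest Lcp1 to Lcp4. Salivary gland markers summed to 10.2 to 115.5 CPM in InRi-labelled and 2726 to 5787 CPM in control fat bodies on 0.7 M, where 8 of 9 tested fell. For hemocyte markers, all 10 tested, the sum ran the other way. It was 2358 to 3009 CPM in InRi-labelled and 1163 to 1667 CPM in control fat bodies on 0.7 M. Most of it came from Cg25C, vkg and Pxn, with means of 1134, 520.4 and 658.1 CPM in InRi-labelled libraries. In control libraries on 0.7 M these genes had 558.6, 272.8 and 229.2 CPM. The median log2 fold change of the 10 markers there was -0.005, against -0.044 over all genes, so the list as a whole did not rise. Only Pxn, which encodes peroxidasin, was called there, and it rose (log2 fold change 1.52, SE 0.32, edgeR adjusted p = 0.0148). Hemocyte sums were 2317 to 2992 CPM in InRi-labelled and 1796 to 9049 CPM in control fat bodies on 0.15 M. The part of other tissues in the levels of the cuticular protein genes was not tested.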

How the data were processed

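The deposited table holds raw counts per gene for 12 libraries (rRNA-depleted total RNA); all columns were used. Per the submitters' processing notes, TopHat 1.3.2, Bowtie 0.12.7, Cufflinks 1.1.0 and build dm3 were used; no source used here names the counting program or its use of strand. Names, arms, lengths and neighbours came from the Release 6 annotation. It matched the symbol of every cuticular protein gene, TwdlBeta by its synonym, and left 328 symbols of the whole table unmatched. No coordinates are given.

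The authors' counts were fitted with edgeR 4.0.16 in R 4.3.3: filterByExpr (minimum count 10, minimum total 15), TMM scaling, 1 fit of 4 group means over all libraries, quasi-likelihood tests, and Benjamini-Hochberg adjustment over 8662 genes (threshold 0.05). The fit was tested on simulated data. DESeq2 1.42.0 was an alternative; others were 2 filters, 2 scalings, a 2-group fit, a replicate block and leaving out each library. No 2 libraries agreed within sampling noise (lowest chi-square per gene 3.85).

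Named genes are those called in any comparison and the 15 with the highest mean CPM. Of other lists, names were drawn from up to 4 called genes per comparison, otherwise from up to 3 of the most abundant. Not all of these are printed, and for some lists only sums or counts are given. Cpr67Fb, Cpr47Eb and Cpr47Ec were added after their values were seen. The members and lists were chosen with earlier results of these data known. List symbols that matched no row were left out.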

Additional observations from a re-analysis of the deposited data

How the results depend on the processing

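The count of cuticular protein genes called by edgeR depended on the settings. For InRi-labelled against control on 0.7 M it was 1, and it became 5 with DESeq2 (836 of all 8662 genes), 3 of 85 with no filter (452 of 13018), 2 of 11 with a stricter filter (474 of 6944), 10 of 14 when only these 2 groups were fitted (1700 of 8173) and 0 with a replicate block (305 of 8662), which gave Cpr49Ac a log2 fold change of 1.49 and an edgeR adjusted p of 0.0978, and it ranged from 0 to 9 over the omissions of single libraries. On 0.15 M it was 0, and 1 with DESeq2 (560 of 8662), with 0 to 1 over the omissions. For 0.7 M against 0.15 M it was 0 in InRi-labelled fat bodies, and 2 with DESeq2 (312 of 8662), 3 of 15 with only these groups (343 of 8349) and 0 to 4 over the omissions; in control fat bodies it was 0, and 2 with DESeq2 (180 of 8662). For the difference of differences it was 0 under all alternatives that could be fitted. Over all genes the calls on 0.7 M were 469, and 137 to 1643 over the omissions. The summed CPM without Cpr49Ac was 273.0 (InRi-labelled, 0.7 M), 818.9 (InRi-labelled, 0.15 M) and 866.2 (control, 0.7 M), against 4167, 2910 and 2237 with it. Of the 27 results for single genes, 1 had a call, Cpr49Ac on 0.7 M, which was lost in 10 of its alternatives (12 omissions and 7 others). The other results had no call and gained one in 42 of their alternatives. None of the 497 alternatives reversed a direction, and the causes were not tested. With library totals in place of TMM the median of all genes shifted to -0.27 for 0.7 M against 0.15 M in InRi-labelled fat bodies, to 0.21 for genotype on 0.15 M and to -0.14 on 0.7 M. Deviations of same-numbered libraries from their group means had correlations of -0.37 to 0.16. Differently numbered libraries were not compared, so these values cannot decide whether the numbers mark a shared batch or culture. At these depths the 102 untested genes allow no statement on change.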
